A study of Mus musculus with 112 samples.

Results

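The cerebral cortex of DBA/2J mice on the control diet was compared with the cortex of 5 other inbred strains on the same diet. The comparison used all 8 DBA/2J control arrays and 39 control arrays of CBA/J, C3H/HeJ, C57BL6/J, Balbc/J and 129S1/SvImJ, out of 112 arrays in the series. Each of these groups held 8 mice except C57BL6/J, from which control replicate 6 was left out because it was high in genes of the cerebellum. The 8 DBA/2J and 40 other inbred mice on the calorie restricted (CR) diet, which shared no array with the control comparison, served as a repeat. All mice were males that arrived at 6 weeks of age, were assigned to a diet at 8 weeks and were killed at 22 weeks after an overnight fast, and each gave 1 array. Per the study's methods, DBA/2J mice were fed like CBA/J and C3H/HeJ mice, whereas Balbc/J mice on both diets received more food, and the CR allotment of C57BL6/J and 129S1/SvImJ was lowered again partway. Strain and amount of food therefore cannot be told apart against Balbc/J on either diet, nor against C57BL6/J and 129S1/SvImJ on the CR diet.

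DBA/2J is among the oldest inbred mouse strains, and its name refers to the dilute, brown and non-agouti coat colour alleles that it carries. Mice of an inbred strain are genetically alike, so that a gene whose level is set by a nearby DNA difference shows the same shift in every mouse of the strain. The cortex is a mixture of neurons, astrocytes, oligodendrocytes, microglia and vessel cells, and a bulk measurement averages over them. A lower value can thus come from fewer cells of a type or from less RNA per cell, which cannot be told apart here. Array probes are built on a reference genome, and the part that sequence differences under the probes play in any value below was not tested.

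Signal was analysed as log2 units for 19938 genes, each represented by 1 probe set. Against the equal-weight mean of the other strains, 1075 genes were higher in DBA/2J (5.39% of those tested) and 1246 were lower (6.25%) at an adjusted p under 0.05 by limma with Benjamini-Hochberg adjustment. Most of these differences were small: the median size was 0.171 log2 units among called genes, 76 reached 0.5 units and 9 reached 1 unit, 7 of them higher and 2 lower. A difference from a mean can arise from a single odd strain among the others. A gene was therefore said to stand apart when DBA/2J differed from each of the 5 strains in the same direction, with the largest of the 5 p-values adjusted over all genes, and the gap was the difference of group means between DBA/2J and the strain nearest to it. On this rule 79 genes stood apart (0.396% of those tested), 35 with the highest mean in DBA/2J and 44 with the lowest. In 35 of them (0.176% of genes tested) no DBA/2J array overlapped any of the 39 other arrays, 19 higher and 16 lower.

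The largest difference was in AI506816, a long non-coding RNA of unknown function. Its signal was 10.06, 10.47 and 10.91 log2 units (lowest, median and highest) in DBA/2J mice, against 3.01, 5.89 and 7.91 in the other mice. The others were themselves graded, from a median of 3.42 in 129S1/SvImJ through 4.88 in Balbc/J, 6.23 in C3H/HeJ and 6.28 in C57BL6/J to 7.48 in CBA/J, the strain nearest to DBA/2J. The mean of DBA/2J exceeded that of CBA/J by 2.90 units (7.46-fold, adjusted p = 9.59e-18). The files hold no detection call, so whether the low signals of 129S1/SvImJ and Balbc/J lay above background, and with them the order among the other strains, was not tested. The reference table places AI506816 on chromosome 5, whereas its probe set number lies among those of chromosome 1, so the locus that the probes read is uncertain.

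Stab2 encodes stabilin-2, a scavenger receptor best known from the sinusoidal endothelium of the liver, where it clears hyaluronan. Its signal was 8.68, 9.02 and 9.63 in DBA/2J mice, against 6.57, 6.94 and 7.24 in the other mice. Here the other strains formed a tight group, with medians between 6.86 in Balbc/J and C57BL6/J and 7.03 in 129S1/SvImJ, and DBA/2J alone was displaced. The gap was 2.02 units, a 4.07-fold difference (adjusted p = 4.16e-23).

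**Figure D1:**
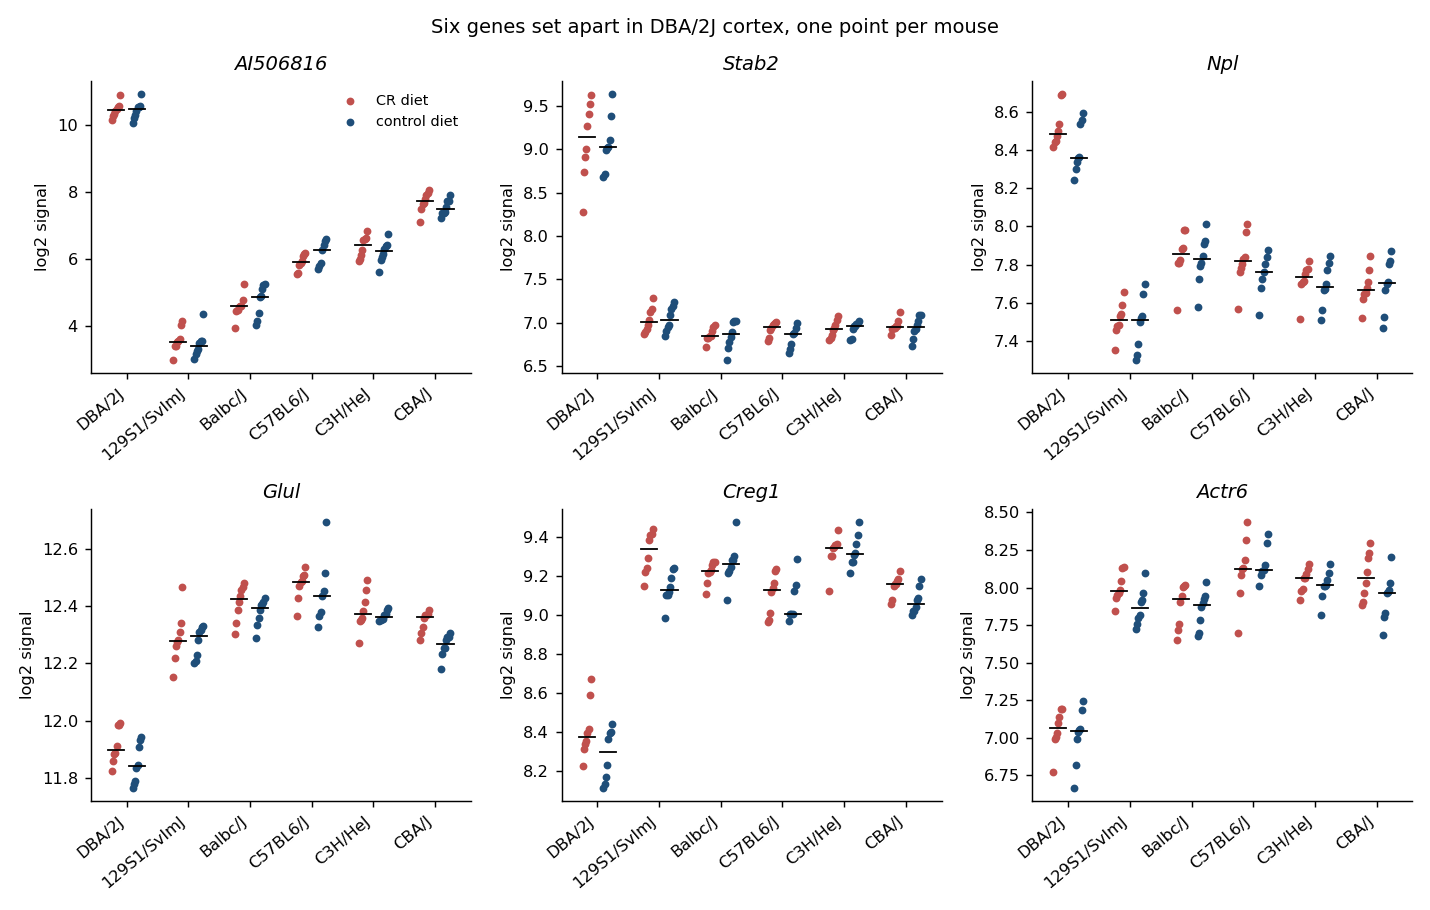
The log2 signal of AI506816, Stab2, Npl, Glul, Creg1 and Actr6 (y axes, 1 panel per gene) is plotted by inbred strain (x axes), with 1 point per mouse on the CR (red) or control (blue) diet and a black line at each group median. On both diets the DBA/2J points of each gene lie outside the range of every other strain, above it for AI506816, Stab2 and Npl and below it for Glul, Creg1 and Actr6.

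Members that encode enzymes or mitochondrial proteins are given first, a grouping made after their values were seen. Npl, the lyase that splits sialic acid, had signals of 8.25, 8.36 and 8.59 in DBA/2J mice and of 7.30, 7.70 and 8.02 in the other mice, with a gap of 0.59 to Balbc/J (adjusted p = 1.31e-08). Mlycd, the malonyl-CoA decarboxylase that removes an inhibitor of fatty acid oxidation, was 7.99, 8.19 and 8.41 in DBA/2J and 7.40, 7.57 and 7.81 in the others (gap 0.57). Abcb8, an ABC transporter of the mitochondrial inner membrane, was 8.52, 8.61 and 8.73 in DBA/2J and 7.77, 7.98 and 8.21 in the others (gap 0.57). None of these 3 genes had a DBA/2J array within the range of the other strains. Lower in DBA/2J were Sat2, a member of the spermidine and spermine acetyltransferase family, Pank2, a pantothenate kinase of coenzyme A synthesis, Vwa8, a mitochondrial ATPase, Eno3, an enolase, and Mrpl41, a protein of the mitochondrial ribosome. Sat2 showed the widest gap of the 5. It was 7.20, 7.41 and 7.56 in DBA/2J mice, against 7.93, 8.23 and 8.59 in the other mice, a difference of -0.84 ± 0.04 from their mean, or -44.1% (SE, adjusted p = 7.22e-21).

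Glul encodes glutamine synthetase, with which astrocytes turn glutamate taken up at synapses into glutamine. Its signal was 11.77, 11.84 and 11.94 in DBA/2J mice, against 12.18, 12.35 and 12.70 in the other mice. The other strains lay close together, with medians between 12.27 in CBA/J and 12.44 in C57BL6/J, and no DBA/2J array reached them. DBA/2J was below the mean of the others, with a difference of -0.50 ± 0.03 units, or -29.2% (SE, adjusted p = 6.85e-19), and the gap to CBA/J was -0.41. A further Glul probe set gave a difference of -0.43. The number of that probe set lay between those of Actr6 on chromosome 10 and Snrnp25 on chromosome 11, whereas Glul is on chromosome 1. The locus that this further probe set reads is therefore uncertain. Of the 10 members with over 1 probe set, 2 had differences near 0 in the other probe set. These were Cdh24 (0.03 in the other probe set against 0.24 in the one used) and Pcnp (-0.03 against -0.34). Smaller differences in the other probe set were found for Mta3 (-0.16 against -0.30), Rpa3 (0.37 against 0.78) and Mrpl41 (-0.225 against -0.367). Of 8 listed astrocyte markers, Gja1, a gap junction protein, was higher in DBA/2J (0.16, 12.5% of the list against 5.39% of all genes). Aldoc (-0.09) and Aldh1l1 (-0.15) were lower (25% against 6.25%). The glutamate transporters Slc1a2 (-0.02) and Slc1a3 (0.04), Gfap (-0.13), Aqp4 (-0.05) and S100b (-0.05) were not called.

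Some members have roles in synapses, axons or transport, again grouped after their values were seen. Dlg4, the postsynaptic scaffold PSD-95, was 11.30, 11.37 and 11.66 in DBA/2J mice and 11.56, 11.78 and 12.02 in the other mice. The ranges overlapped slightly, and the gap to C57BL6/J was -0.24 (adjusted p = 3.08e-04). Also lower were Nmnat2, which makes NAD in axons (gap -0.22), Kifap3, an adaptor of the kinesin-2 motor (gap -0.26), Stx6, a SNARE protein of the trans-Golgi network (gap -0.20), Sgip1, an endocytic protein (gap -0.21), and Slc16a1, the monocarboxylate transporter that carries lactate (gap -0.33). Rab3b, a small GTPase of secretory vesicles, was higher (gap 0.30). Of these, Rab3b, Stx6 and Slc16a1 no longer stood apart without DBA/2J control replicate 8, Nmnat2 stood apart in 2 of 8 fits with 1 DBA/2J control array left out, and Stx6, Nmnat2 and Slc16a1 did not stand apart on the CR diet. The list of 18 measured synaptic vesicle and SNARE genes held 1 call, higher (5.56% against 5.39% of all genes). The median difference of the list was 0.0177, against 0.00324 over all genes.

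Members known from the immune system, also grouped after their values were seen, follow. The chemokine gene Ccl3 was 6.55, 6.68 and 6.81 in DBA/2J mice, against 5.87, 6.18 and 6.43 in the other mice (gap 0.42, adjusted p = 2.80e-05). Fcer1g, the signalling chain of Fc receptors, was 7.68, 7.78 and 7.94 in DBA/2J and 7.05, 7.33 and 7.65 in the others (gap 0.36). Slfn8, a schlafen gene, was 5.66, 5.83 and 6.14 in DBA/2J and 5.02, 5.35 and 5.62 in the others (gap 0.42). These 3 genes did not overlap between DBA/2J and the rest. Ccl6, another chemokine (gap 0.31), Ly86, a partner of a B cell receptor of the toll-like family (gap 0.31), Parvg, a parvin of blood cells (gap 0.31), and the cytokine Il17d (gap 0.24) were also higher, with overlapping arrays.

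Cd59a, which shields cells from the membrane attack complex of complement, was 8.65, 8.89 and 9.33 in DBA/2J mice and 6.98, 8.03 and 8.76 in the other mice. The strains differed widely in this gene, with the lowest median in 129S1/SvImJ (7.29) and the next highest after DBA/2J in CBA/J (8.53). In the opposite direction, Cd33, a sialic acid binding receptor of myeloid cells, was lower (7.87, 7.97 and 8.10 in DBA/2J against 8.01, 8.40 and 8.60 in the others, gap -0.27), as was Tifa, an adaptor of NF-kB signalling (6.32, 6.63 and 6.72 in DBA/2J against 6.71, 7.13 and 7.48 in the others, gap -0.35).

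Markers of microglia, the resident macrophages of the brain, were read beside these genes, and their part in the results above was not tested. Of 8 markers, P2ry12 (0.30) and Itgam (0.18) were called higher (25% against 5.39% of all genes). C1qa (-0.17) and Aif1 (-0.14) were called lower (25% against 6.25%). Cx3cr1 (0.09), Tmem119 (-0.09), Trem2 (-0.03) and Csf1r (-0.01) were not called. The median over the list was -0.0204. Of 16 measured complement genes, 1 was higher, Cd59a, and 4 were lower, namely C1qa, C1qc, the receptor C3ar1 and C1qbp, a C1q binding protein that is mainly mitochondrial (6.25% higher against 5.39% of all genes, and 25% lower against 6.25%). On the CR diet 1 complement gene was higher and 2 were lower, beside 1769 higher and 1266 lower among all 19938 genes. Of 21 genes of the H2 complex and antigen presentation, 3 were higher (14.3% against 5.39% of all genes) and 1 was lower (4.76% against 6.25%). The median of this list was -0.0039, and none of its genes stood apart. Of 13 C-type lectin and killer cell receptor genes, limma called 0, and 0 had an unadjusted p under 0.05. Of 21 interferon-induced genes, 4 were higher and 0 lower on the control diet (Xaf1 0.39, Ifit3 0.36, Ifit1 0.33 and Oasl2 0.14), 19% against 5.39% of all genes. Without DBA/2J control replicate 8 the count was 5. None of the 4 stood apart, and on the CR diet 1 gene of the list was higher and 1 lower.

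Ptgs2, the inducible cyclooxygenase of prostaglandin synthesis that neurons make with activity, was 7.59, 7.95 and 8.64 in DBA/2J mice and 8.07, 8.83 and 9.70 in the other mice. The arrays overlapped, and the gap to CBA/J was -0.64 (adjusted p = 9.48e-04). In the same direction, the list of 14 immediate early genes, which neurons switch on within minutes of firing, had a median difference of -0.222, and Fos (-0.40 ± 0.12, SE, adjusted p = 0.0251) and Fosb (-0.21 ± 0.07, SE, adjusted p = 0.0397) were lower. These 2 calls were 14.3% of the list, against 6.25% of all genes called lower. All 14 members were below the mean of the other strains, whereas 10338 of all 19938 genes were above it. The 14 members were read in the same mice and are not separate observations. Fos was no longer called without DBA/2J control replicate 7 (adjusted p = 0.105) or 8 (adjusted p = 0.116), with Balbc/J or CBA/J left out of the other strains (adjusted p = 0.229 and 0.0595), or with the cerebellar level of each array as a covariate (adjusted p = 0.116). Without replicate 8 no member of the list was called, and the median was -0.202. On the CR diet 0 members were called and the median was -0.0594.

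Genes that handle chromatin, RNA and protein formed a further part of the 79. Actr6, an actin-related subunit of the complex that places the histone variant H2A.Z, was the most reduced gene by gap. Its signal was 6.67, 7.04 and 7.24 in DBA/2J mice, against 7.68, 7.96 and 8.36 in the other mice (gap -0.85 to Balbc/J, adjusted p = 7.30e-13). Tada1, a subunit of the SAGA coactivator (gap -0.24), Mta3, of the NuRD complex (gap -0.24, apart in 2 of 8 fits with 1 DBA/2J control array left out), Tasp1, a protease that cleaves MLL proteins (gap -0.22), Fan1, a DNA repair nuclease (gap -0.30), and the zinc finger genes Zfp277 (gap -0.38) and Zfp141 (gap -0.26) were lower too. Higher were Adat2, the catalytic subunit of a tRNA adenosine deaminase, at 8.99, 9.45 and 9.59 in DBA/2J and 8.37, 8.54 and 8.81 in the others (gap 0.78, adjusted p = 1.16e-14), Rpa3, the small subunit of replication protein A (gap 0.53), Cdk13, a kinase of RNA polymerase II (gap 0.23), Snrnp25, a minor spliceosome protein (gap 0.30), and Senp3, a SUMO protease (gap 0.23).

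Creg1, a glycoprotein of the endosome and lysosome, was 8.11, 8.30 and 8.44 in DBA/2J mice and 8.97, 9.19 and 9.48 in the other mice (gap -0.79, adjusted p = 1.32e-15). Gnptab, which starts the mannose 6-phosphate tag on lysosomal enzymes, was lower as well (gap -0.22), and so was Ppib, a proline isomerase of the endoplasmic reticulum, at 10.62, 10.74 and 10.82 in DBA/2J against 10.95, 11.14 and 11.30 in the others (gap -0.30). Ppib, often used as a housekeeping gene, did not overlap between DBA/2J and the rest.

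Some members belong to families or have near-identical copies, so that their probes may read more than 1 gene. Rps2, a protein of the small ribosomal subunit, was 10.89, 10.98 and 11.02 in DBA/2J mice, against 11.26, 11.96 and 12.20 in the other mice, with 129S1/SvImJ next (median 11.31, gap -0.36). Its further probe sets gave differences of -0.62 and -0.87 beside -0.88 for the one used. Of the 23 measured ribosomal protein genes, 5 were higher (21.7% against 5.39% of all genes) and 2 were lower (8.7% against 6.25%), and the median difference was 0.0245. Nat8f4, of the N-acetyltransferase 8 family (6.2, 6.33 and 6.62 in DBA/2J against 6.67, 7.24 and 7.49 in the others, gap -0.39), Pisd-ps2, a transcribed pseudogene of phosphatidylserine decarboxylase (gap 0.51), Sfi1, a centrosome gene (9.0, 9.27 and 9.43 in DBA/2J against 7.80, 8.19 and 8.54 in the others, gap 0.89), the histone gene H4c4 (gap 0.20) and Eif4a1, the helicase of translation initiation (gap -0.25), share this uncertainty. For AI506816, Eif4a1, Mrpl41, Pcnp and Zfp141 the probe set number lay among those of another chromosome than the gene, whereas gene and number went together for 74 of the 79 members and 98.4% of all genes.

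A few members are best known from other organs. Mael, a germ line protein that silences transposons, was 5.56, 6.01 and 6.93 in DBA/2J mice and 4.54, 5.00 and 5.42 in the other mice (gap 0.95). Eqtn, a sperm acrosome protein, was 4.84, 5.05 and 5.38 in DBA/2J and 5.24, 5.65 and 6.78 in the others (gap -0.41). Tnnt2, the troponin T of heart muscle, was 6.97, 7.36 and 7.72 in DBA/2J and 7.67, 8.07 and 8.36 in the others (gap -0.46). Rgsl1, a regulator of G protein signalling by sequence, was 5.54, 6.08 and 6.35 in DBA/2J and 6.24, 6.62 and 7.04 in the others (gap -0.51). The arrays of Mael did not overlap, and those of Eqtn, Tnnt2 and Rgsl1 did.

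The remaining higher members were 6330403K07Rik (10.69, 10.81 and 11.15 in DBA/2J against 9.26, 9.72 and 10.37 in the others), Tmem203 (9.72, 10.10 and 10.24 against 9.02, 9.38 and 9.69), Cep162, Fam78b, Frrs1, Tmem53, Tmem87b, Pdpn, Cdh24 and the long non-coding RNAs Gm13375, Gm9936 and C130026L21Rik, with gaps between 0.22 (Cdh24) and 0.62 (6330403K07Rik). The remaining lower members were Frg2f1, 4930505A04Rik, Plekhh2, Sft2d2, Pcnp, Mis12, Sypl, Commd7, Rnf208, Entpd2, Tmem81, Ap5s1 and Pdcd2l, with gaps between -0.15 (Pdcd2l) and -0.36 (Frg2f1). The last 2 genes inside the threshold were H4c4 (gap 0.20, adjusted p = 0.0468) and Pdcd2l (gap -0.15, adjusted p = 0.0494), and the first 2 outside were Klhdc2 (gap -0.23, adjusted p = 0.0527) and Ube2g1 (gap -0.20, adjusted p = 0.0601).

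The members were unevenly placed in the genome. By the reference table, 15 of 79 lay on chromosome 1 (19% against 5.63% of genes tested), 13 on chromosome 11 (16.5% against 7.84%) and 11 on chromosome 2 (13.9% against 8.69%). No member lay on chromosome 18, 19, X or Y, which held 2.36%, 3.39%, 3.71% and 0.0451% of genes tested. The probe set used for Eif4a1, placed on chromosome 11, was numbered among those of chromosome 19. On chromosome 1, Ptgs2, Nmnat2, Npl, Rgsl1, Glul and Stx6 lay within 36 consecutive measured genes, 12 of which, these 6 included, were called. Farther along the same chromosome, Kifap3, Sft2d2, Creg1, Mael, Tada1 and Fam78b lay within 32, 13 of which, again with the 6, were called. Each stretch was drawn to start and end at a member, so its count holds calls by choice. Over all genes 5.39% were called higher and 6.25% lower. Neighbours did not move as 1 block: Npl was higher and Rgsl1 lower with only Rgs8 and Rgs16 measured between them, and Mael was higher and Tada1 lower with 1 measured gene between them.

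**Figure D2:**
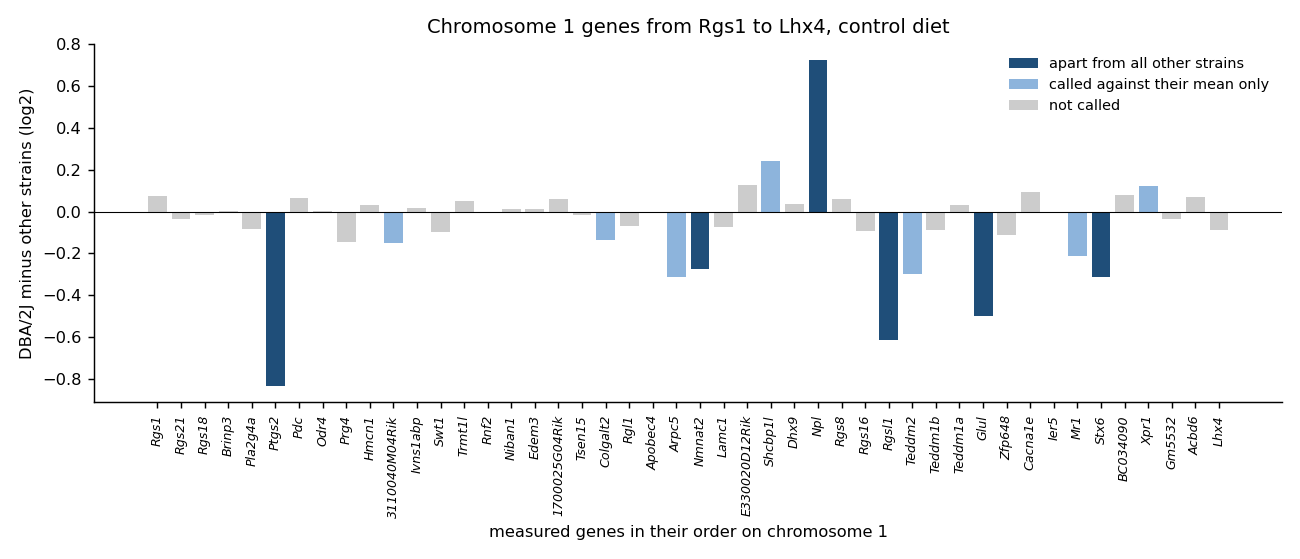
Bars give the difference in log2 signal between DBA/2J and the mean of the 5 other inbred strains on the control diet (y axis) for measured genes in their order on chromosome 1 from Rgs1 to Lhx4 (x axis). Grey bars are genes not called and light blue bars genes called against the mean only. Dark bars, genes that stand apart, include Npl at 0.72 and Ptgs2 at -0.83, with many genes near 0 between them.

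Smaller groups of neighbours lay elsewhere. On chromosome 10, Stab2, Gnptab and Actr6 lay within 26 measured genes, of which they were the 3 that were called. On chromosome 11, Sat2, Eif4a1 and Senp3 lay within 7 genes, Eno3, Mis12 and 6330403K07Rik within 15, and Slfn8, Ccl6 and Ccl3, all higher, within 18. On chromosome 2, Mrpl41, Rnf208, Tmem203 and Entpd2 lay within 25. The probe sets used for Mrpl41 and Eif4a1 were numbered among those of chromosomes 7 and 19, so their place here rests on the reference table. Directly adjacent pairs moved in opposite directions in 3 cases, with Tmem203 higher and Rnf208 lower, Senp3 higher and Eif4a1 lower, and 6330403K07Rik higher and Mis12 lower. The adjacent chemokine genes Ccl3 and Ccl6 were both higher.

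By number of genes called, DBA/2J was nearest to CBA/J and C3H/HeJ. DBA/2J differed from CBA/J in 1896 genes (9.51% of those tested), from C3H/HeJ in 2416 (12.1%), from Balbc/J in 3770 (18.9%), from 129S1/SvImJ in 5390 (27% of those tested) and from C57BL6/J in 7296 (36.6%). These 5 comparisons share the DBA/2J arrays, and C57BL6/J had 7 arrays. Among the 79 genes, the strain nearest to DBA/2J was 129S1/SvImJ in 26, CBA/J in 17, C57BL6/J in 15, Balbc/J in 13 and C3H/HeJ in 8. When the same rule was applied to each other strain in turn, 1401 genes stood apart in 129S1/SvImJ, 923 in C57BL6/J, 108 in Balbc/J, 34 in CBA/J and 24 in C3H/HeJ. DBA/2J was thus neither the most nor the least distinct of the 6 strains by these counts.

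A large difference from the mean of the other strains did not require that DBA/2J stand apart. 4930578G10Rik was 5.36, 5.87 and 6.51 in DBA/2J mice, against 5.43, 5.96 and 6.61 in CBA/J mice and medians between 9.52 and 10.28 in the other 4 strains. Gm10590 was 7.73, 7.86 and 8.05 in DBA/2J, against 7.74, 7.95 and 8.06 in CBA/J and medians between 10.11 and 10.98 in the other 4. In both, DBA/2J and CBA/J were low together, and the difference from the mean of all 5 strains (-3.21 and -2.12) came from the other 4. Snord53, a small nucleolar RNA, had medians of 11.73 in DBA/2J and 11.93 in Balbc/J. The rest had lower medians, between 8.62 in 129S1/SvImJ and 11.30 in CBA/J, and the difference from the mean of the 5 was 1.44. For 1810037I17Rik, with a difference of 1.14, medians were 5.85 in DBA/2J and 5.525 in 129S1/SvImJ. In the rest they lay between 4.55 in CBA/J and 4.64 in C57BL6/J. This gene stood apart on the CR diet (gap 0.74, limma adjusted p = 0.0059) but not on the control diet (gap 0.39).

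Genes with alleles known to differ between inbred strains were looked at separately. Of 19 measured, 4 were higher (21.1% against 5.39% of all genes), 3 lower (15.8% against 6.25%) and none stood apart. Gpnmb, a melanosome and macrophage glycoprotein in which DBA/2J carries a premature stop, was 5.85, 6.18 and 6.41 in DBA/2J mice and 6.08, 6.51 and 7.06 in the other mice (-0.34 ± 0.06, SE, adjusted p = 3.87e-05), and C3H/HeJ (median 6.24) lay close to DBA/2J. Myo5a, the myosin of the dilute locus, was lower (-0.11 ± 0.04, SE, adjusted p = 0.0422), and this call was lost under 11 of 24 alternative settings. Tyrp1, the gene of the brown locus, did not pass the test (-0.07 ± 0.10, SE, adjusted p = 0.792). The complement gene Hc (0.03), the killer cell receptor gene Klrd1 (0.01), Ahr (0.01), Cdh23 (-0.09) and Taar1 (-0.01), in which DBA/2J carries variant alleles, were also not called.

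Alad, of haem synthesis, was 10.35, 10.54 and 10.60 in DBA/2J mice, close to CBA/J (median 10.5) and below Balbc/J (median 10.71), but above C57BL6/J (median 9.46) and 129S1/SvImJ (median 9.71). Glo1, a glyoxalase, was 9.93, 10.07 and 10.19 in DBA/2J, within the range of C3H/HeJ and CBA/J (medians 10.02 and 9.96) and above Balbc/J (median 9.45). The probe set read for Glo1 was numbered among those of chromosome 2, where the reference lists a Glo1 pseudogene. Gabra2, a GABA-A receptor subunit with a low-expression allele in C57BL6/J, was higher in DBA/2J (0.18 ± 0.05, SE, adjusted p = 0.0125), and without C57BL6/J the difference was 0.002. The Gabra2 call was also lost without DBA/2J control replicate 2 (adjusted p = 0.0563) or 8 (adjusted p = 0.0649), with C57BL6/J control replicate 6 kept (adjusted p = 0.133) and with the cerebellar covariate (adjusted p = 0.0672). Cox7a2l (0.23, its probe set numbered among those of chromosome 12) and Mpdz (-0.21) were the other called genes of this list. Mpdz was not called without C57BL6/J among the other strains (-0.149, adjusted p = 0.0616).

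Ion channels and transmitter receptors were read as lists. Of 21 sodium and calcium channel genes, 6 were higher in DBA/2J and 0 lower (28.6% against 5.39% of all genes), among them the T-type calcium channels Cacna1g (0.22), Cacna1i (0.17) and Cacna1h (0.23), Scn3a (0.29), Cacna1a (0.12) and Cacna2d2 (0.33). The list median was 0.0931, and 5 members were called without DBA/2J control replicate 8. On the CR diet 6 members were higher, 3 of them the same genes, with a median of 0.0701. Among all 19938 genes 1769 were higher on that diet. Of 25 potassium channel genes 3 were higher (12% against 5.39% of all genes), led by the glial channel Kcnj10 (0.22). Without C57BL6/J among the other strains the Kcnj10 difference was 0.113 and not called (limma adjusted p = 0.125). Of 11 GABA-A receptor subunits, Gabra2 was higher (9.09% against 5.39% of all genes) and Gabrb2 lower (9.09% against 6.25%). The Gabrb2 difference was -0.29 ± 0.04 (SE, limma adjusted p = 1.64e-07), and a further Gabrb2 probe set of larger variance gave 0.24 instead. Of 15 ionotropic glutamate receptor genes, Grik3 (0.17) and Grin3a (0.14) were higher (13.3% against 5.39% of all genes). Of 6 metabotropic glutamate receptor genes, Grm4 (0.43), which is also a cerebellar marker, and Grm7 (0.12) were higher (33.3% against 5.39% of all genes), and on the CR diet Grm7 alone was. With C57BL6/J control replicate 6 kept, Grm4 (0.357, adjusted p = 0.277), Cacna1g (0.197, adjusted p = 0.0853) and Grik3 (0.192, adjusted p = 0.0656) were not called.

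Of 22 genes of monoamine signalling, the receptors Htr6 (0.21) and Drd5 (0.32) were higher (9.09% against 5.39% of all genes). Maob (-0.17) and Htr5a (-0.16) were lower (9.09% against 6.25%). None of these 4 was called on the CR diet, and Htr6 was not called without C57BL6/J among the other strains (0.137, adjusted p = 0.124). Among 18 neuropeptide genes, Sst, the peptide of a class of interneurons, was 11.84, 11.99 and 12.39 in DBA/2J mice, against 11.37, 11.79 and 12.15 in the other mice (0.24 ± 0.05, SE, adjusted p = 3.85e-04), and it was not called without C57BL6/J among the other strains (adjusted p = 0.0503) or with C57BL6/J control replicate 6 kept (adjusted p = 0.465). Chga (0.11) was the other neuropeptide gene that was higher, which made 11.1% of the list against 5.39% of all genes.

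Of 33 genes of oxidative phosphorylation, 9 were higher (27.3% against 5.39% of all genes) and 5 lower (15.2% against 6.25%), and the median was -0.0208. Higher were Cox5a (0.22), Cox5b (0.18), Sdhc (0.20), Cyc1 (0.17) and Uqcrc1 (0.16), and lower were Ndufv1 (-0.15), Ndufs1 (-0.14) and Sdhd (-0.16), so that subunits of complex II moved in both directions. Of 35 genes of glutathione and aldehyde detoxification, 6 were higher (17.1% against 5.39% of all genes) and 3 lower (8.57% against 6.25%). The largest of these was Akr1e1, an aldo-keto reductase, at 8.37, 8.52 and 8.55 in DBA/2J mice, like C57BL6/J (median 8.52) and above C3H/HeJ (median 7.33) and CBA/J (median 7.31). Of 17 genes of lipid and sterol metabolism, Fasn, the fatty acid synthase, was higher (0.14). Apoe, the apolipoprotein of astrocytes, was lower (-0.14). Each made 5.88% of the list, against 5.39% of all genes called higher and 6.25% called lower. Of 17 clock genes, Tef was lower (-0.17), 5.88% of the list against 6.25% of all genes.

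The strain pattern was measured again in CR mice. There 3035 genes were called against the mean of the other strains (15.2% of those tested), 1769 higher and 1266 lower. On that diet 89 stood apart (0.446%), 46 higher and 43 lower. All 79 genes of the control comparison had the same sign on the CR diet, and 78 were called against the mean of the other strains, the exception being Mta3 (-0.11, adjusted p = 0.0558). Of the 79, 55 stood apart on both diets, 25 higher and 30 lower. In 35 of the 79 the CR arrays of DBA/2J lay wholly to the same side of those of the other strains, against 0.231% of all genes on either side, and in 22 this held on both diets.

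**Figure D3:**
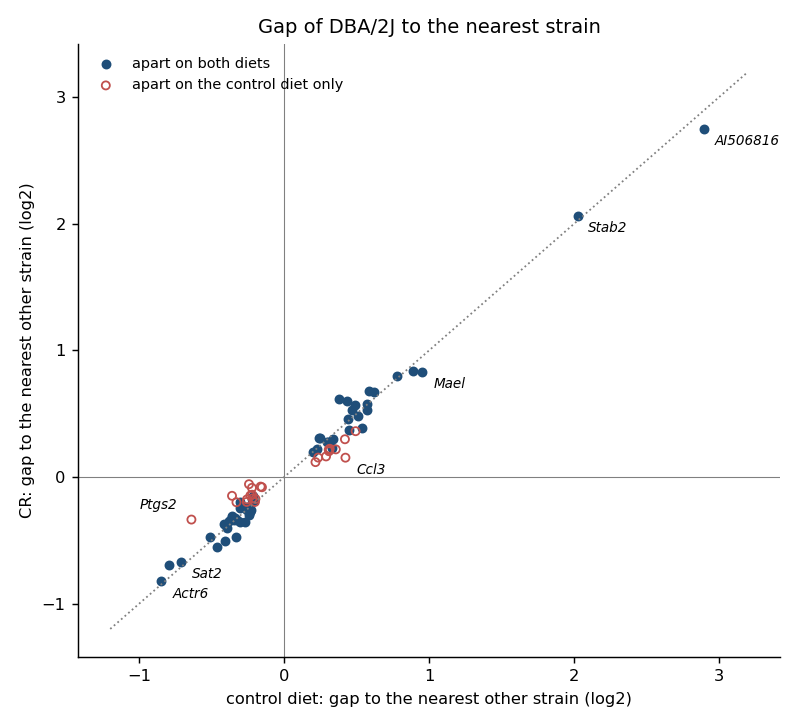
The gap between DBA/2J and the nearest other inbred strain on the CR diet (y axis, log2) is plotted against the gap on the control diet (x axis, log2) for the 79 genes, with a dotted line of equal gaps. Filled points, 55 genes, stood apart on both diets, and open points, 24 genes, on the control diet only. AI506816 lies at 2.90 on the control diet and 2.75 on the CR diet.

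Among the 24 genes that stood apart on the control diet only were Ptgs2 (gap -0.34 on the CR diet and -0.64 on the control diet), Ccl3 (0.15 and 0.42), Slfn8 (0.30 and 0.42), Fcer1g (0.22 and 0.36), Ly86 (0.22 and 0.31), Ccl6 (0.22 and 0.31), Parvg (0.20 and 0.31), Cd59a (0.36 and 0.49), Nmnat2 (-0.09 and -0.22) and Slc16a1 (-0.20 and -0.33). A test of the difference between diets gave no call for any of them. Over all genes, 0 of 19938 (0%) had a strain difference that changed with diet by limma at an adjusted p under 0.05, 928 had an unadjusted p under 0.05, and the smallest adjusted p was 0.459. Among the 79, the smallest was 0.81, for Ccl3.

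The tissue content of the arrays was examined through marker genes. Of 10 listed markers of excitatory cortical neurons 9 were measured, and 0 passed limma's test on the control diet, either adjusted or at an unadjusted p under 0.05. On the CR diet, where 1769 of all 19938 genes were called higher, Rorb (0.30) and Nrn1 (0.23) were higher. Slc17a7, the vesicular glutamate transporter of these cells, had a mean of 12.18 in DBA/2J and of 12.19 in CBA/J. Of 9 interneuron markers, 8 had a positive difference and Sst alone was called on the control diet (11.1% against 5.39% of all genes called higher). On the CR diet Sst (0.18), Reln (0.21) and Vip (0.34) were called higher. In DBA/2J control replicate 8, 12 cerebellar markers lay a median of 1.38 units above the other 7 arrays of its group, and their mean was 8.59, against at most 7.32 in the other control arrays used. Cerebellum is not part of the cortex. Of these 12 markers 1, Grm4, was called higher in DBA/2J (0.43 ± 0.11, SE, limma adjusted p = 0.00504), 8.33% against 5.39% of all genes. The list median was 0.157 on the control diet and -0.013 on the CR diet, where no DBA/2J array was raised. Without replicate 8 the list median on the control diet was 0.0189. Median differences of 0.286 for 6 markers of striatum and 0.246 for 8 of choroid plexus accompanied the control comparison, against -0.349 and 0.056 on the CR diet. By limma 0 members of these lists were called on either diet, and 0 striatal and 1 choroid plexus gene had an unadjusted p under 0.05 on the control diet. The part of this tissue content in the results was not tested.

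Without replicate 8, 72 genes stood apart, including 69 of the 79. Those that dropped out were C130026L21Rik, Mis12, Mta3, Pdcd2l, Rab3b, Senp3, Slc16a1, Stx6, Sypl and Tmem81, with gaps between -0.26 and 0.25 in that fit. With 1 DBA/2J control array left out at a time, 62 of the 79 stood apart in all 8 fits. AI506816, Stab2, Glul, Creg1, Sat2, Actr6 and Dlg4 were among these 62. H4c4, Mta3, Nmnat2 and Pdcd2l stood apart in 2 of the 8 fits, and Cdh24, Ly86, Slc16a1 and Sypl in 3. Ap5s1 and C130026L21Rik did so in 4, and Mis12 and Sgip1 in 5.

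**Figure D4:**
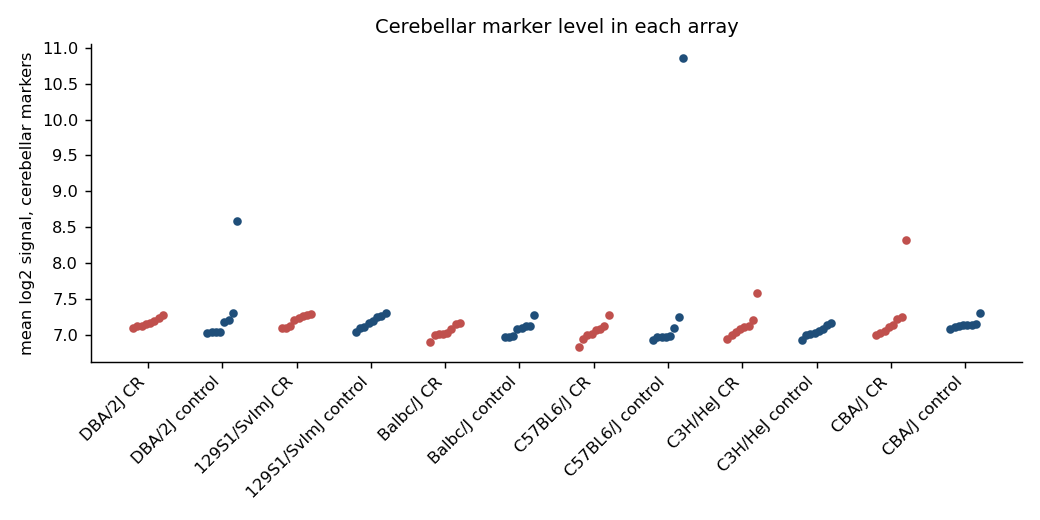
The mean log2 signal of 12 cerebellar markers (y axis) is plotted for each array by strain and diet (x axis), with CR in red and control in blue. Arrays that stand out are C57BL6/J control replicate 6, which was left out of the comparison, DBA/2J control replicate 8 at 8.59 and CBA/J CR replicate 6 at 8.32.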

How the data were processed

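Total RNA from cerebral cortex was extracted with Trizol, labelled as biotin cRNA and read on Affymetrix Mouse Gene 1.0 ST arrays. Deposited values are log2 signals that the authors computed by gene-level RMA-Sketch in Expression Console, whose version is not given in the sources used here. Of 35556 probe sets, 21789 had exactly 1 gene symbol in the platform annotation, 1621 had several and 12146 none. For 999 genes with over 1 probe set, that of highest mean was used, with no filter on low signal. Of those with 1 symbol, 21698 matched a RefSeq list of genes (GRCm38.p6), used for names and gene order only.

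A mean per strain was fitted to 47 control arrays by limma (version 3.58.1, R version 4.3.3) through lmFit, contrasts and eBayes. Tests were two-sided, had 41 degrees of freedom plus 5.38 from the prior, and were adjusted by Benjamini-Hochberg over 19938 genes. The 48 CR arrays were fitted likewise. The difference between diets was fitted to all of them (83 residual degrees of freedom). The code was tested on simulated data. The number of arrays limits the precision, and the median SE was 0.0496.

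Members, lists, tests and the naming rule were chosen with earlier results of these data known. Named were the 12 widest gaps each way that held on both diets, the largest differences that did not stand apart, up to 4 members per list, the strain variant genes and the longest runs of neighbours. Other names were added after their values were seen. Alternatives covered arrays, strains, normalization, filters, weights, probe sets and tests, among them the methods' t-test. Plots used Python 3.11.15 and matplotlib 3.10.9, tables were read with data.table (version 1.17.8), and 0 sample columns were unused.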

Additional observations from a re-analysis of the deposited data

Results flagged for a closer look

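Among the 24 genes with the widest gaps on both diets, the 8 DBA/2J arrays of each diet were searched for a single array far from the rest, by Dixon's ratio of the gap to the nearest array over the range. Of 48 such groups 6 were marked, where chance marks about 1 in 20. In 6330403K07Rik, DBA/2J CR replicate 1 was at 11.42 log2 units with the other arrays between 10.61 and 10.95, and DBA/2J control replicate 8 was at 11.15 with the others between 10.69 and 10.85. In Tmem203, DBA/2J control replicate 8 was at 9.72 with the others between 10 and 10.24. This is the array raised in cerebellar markers. In Abcb8, DBA/2J CR replicate 2 was at 8.78 with the others between 8.46 and 8.56. In Rpa3, DBA/2J CR replicate 6 was at 7.72 with the others between 8.04 and 8.19. In Nat8f4, DBA/2J CR replicate 5 was at 5.8 with the others between 6.23 and 6.53.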

How the results depend on the processing

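The count of 79 genes that stood apart lay between 70 and 77 with 1 DBA/2J control array left out. That of 2321 genes called against the mean lay between 1999 and 2234. The members changed more than these counts: without DBA/2J control replicate 8, 2002 genes were called, 1770 of them among the 2321. Without 129S1/SvImJ among the other strains, 130 genes stood apart, against 107 without Balbc/J, 103 without CBA/J and 86 without C3H/HeJ. Fewer strains had to differ in each of these fits. The methods' t-test of 8 against 39 arrays called 1270 genes at their threshold and 623 after Benjamini-Hochberg on linear signal, and 1271 and 612 on log2 signal. A test against a change of 1.2-fold called 88. With C57BL6/J control replicate 6 kept, 58 genes stood apart, all among the 79, and 1717 were called. Leaving out C57BL6/J gave 102 and 1709. A fit of each pair of groups alone, added after seeing the data, gave 53. The other counts stayed within 1.5 times of the reported ones.

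With the replicate block 71 genes stood apart, 69 of them among the 79, and 2283 were called. On the CR diet the replicate block gave 92 and 3073, and for the difference between diets 0 (smallest adjusted p = 0.249). Deviations of arrays of the same number in different strains had a mean correlation of 0.00955 over 115 pairs (from -0.427 to 0.531). Arrays of different number gave -0.00138 over 805 pairs. The numbers were not used as a pairing in the main fit, and a mean over pairs cannot exclude one.

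For 71 named genes, 1627 of 1681 alternative values kept their direction and side of the threshold, 51 lost it, 1 gained it and 2 reversed. The reversals were Gabrb2 (0.24) and Cox7a2l (-0.039), both with the probe set of largest variance, and the cause was not tested. Rgsl1, Tifa and Cd59a did not stand apart with C57BL6/J control replicate 6 kept, nor did Senp3, Rnf208 and Tifa with the cerebellar level as covariate.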
